A study of Mus musculus with 12 samples.

Results

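The 35 genes described here are genes of granulocytes, monocytes and their precursors, taken by symbol from the 24054 genes in each of 12 RNA sequencing tables of sorted mouse fetal liver cells. They were chosen by name and told apart by role into 4 primary granule enzymes, 8 later granule and secreted defence proteins, 7 transcription factors, 4 phagocyte oxidase subunits, 8 surface proteins and 4 other enzymes. Mutant MPP (3 libraries) and mutant LT-HSC (3 libraries) had the genotype Setdb1 p/p with vav-cre, and control MPP (3 libraries) and control LT-HSC (3 libraries) were Setdb1 +/p. Setdb1 encodes a methyltransferase of histone H3 lysine 9, and vav-cre is a Cre transgene active in blood cells. The labels do not say what the p allele is, and every group carried at least one copy of it. Control MPP 1, control MPP 2 and control LT-HSC 1 lacked vav-cre, whereas control MPP 3, control LT-HSC 2 and control LT-HSC 3 carried it. All fetuses were at E13.5, and the labels give no strain, sex or litter. Cells were sorted as LSK (lineage-negative cells that carry Sca1 and Kit), with CD150- CD48+ cells as multipotent progenitors (MPP) and CD150+ CD48- cells as long-term haematopoietic stem cells (LT-HSC). About 20000 MPP or 500 to 1000 LT-HSC went into each sample. No label says that replicates came from separate fetuses, so p-values measure the spread between these samples, which may be technical.

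Granulocytes and monocytes arise from multipotent cells through granulocyte-monocyte progenitors. Members of the C/EBP family, Irf8, Gfi1 and Klf4 act in that choice: C/EBPε drives the late, secondary-granule stage of neutrophils, and Irf8 and Klf4 favour monocytes. Primary granules with myeloperoxidase and serine proteases are made first and granules with lactoferrin and cathelicidin later, while the phagocyte oxidase makes superoxide in mature cells of both lineages. In stem and multipotent cells such genes are known to be transcribed at low levels before commitment.

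Slamf1, Cd48 and Kit followed the labels. Slamf1, which encodes CD150, lay between 1.09 and 2.39 CPM (a gene's counts relative to the scaled size of its library) in MPP and between 34.7 and 41.6 CPM in LT-HSC. Cd48 lay between 149.9 and 259 CPM in MPP and between 10.6 and 30.4 CPM in LT-HSC, and Kit between 818 and 1081 CPM in all 12 libraries. Ly6a, which encodes Sca1, had 16.9, 14.2 and 13.7 CPM in mutant MPP and 31.1, 35.2 and 26.3 CPM in control MPP, and fell by 1.07 on the log2 scale (adjusted p = 0.000339), as did Cd48 by 0.44 (adjusted p = 0.0148). In LT-HSC neither was called, and Ly6a had 47.2, 93.6 and 24.3 CPM in mutant LT-HSC and 43.6, 37.8 and 33.2 CPM in control LT-HSC. Setdb1 RNA was present in every library and overlapped between genotypes, so it did not check the labels, with 86.9, 117 and 99.0 CPM in mutant MPP and 140, 95.2 and 87.8 CPM in control MPP, and with 66.4, 66.4 and 80.8 CPM in mutant LT-HSC and 83.9, 73.4 and 108 CPM in control LT-HSC. Total expected counts lay between 10119416 and 14113198 per library.

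Some libraries stood apart in these genes or in genes of other cells. Control LT-HSC 2 had the highest granule enzyme RNA of the LT-HSC libraries, with 794 CPM of Mpo. Control LT-HSC 3 and control MPP 2 had little RNA of the late granule genes Ltf, Ngp and Camp, whose summed level was 7.08 and 21.5 CPM, against 67.1 to 203 CPM in the other 10 libraries. The summed level of 15 macrophage markers was 276, 169.7 and 265 CPM in mutant MPP and 1074, 832 and 706 CPM in control MPP, so those groups did not overlap. In mutant LT-HSC the same sum was 79.5, 1440.2 and 238 CPM, and in control LT-HSC it was 1143, 1413 and 1623 CPM, so mutant LT-HSC 2 stood at the level of the controls in the sum. Cd163, a marker of mature macrophages, was at 0 CPM in 3 of the libraries and below 0.5 CPM in all others except control LT-HSC 3, with 8.66 CPM. Red cell markers summed to 5001, 7592 and 6986 CPM in mutant MPP and to 1962, 1391 and 3038 CPM in control MPP. Hepatoblast markers summed to 87.7, 108 and 63.4 CPM in mutant MPP and to 329, 236 and 521 CPM in control MPP. In LT-HSC the hepatoblast sum was 241, 455 and 61.4 CPM in mutant LT-HSC and 508, 1728 and 1773 CPM in control LT-HSC, so it did not overlap between genotypes in either cell type. Lymphocyte markers summed to 49.9, 35.8 and 43.0 CPM in mutant MPP and to 151, 129.5 and 103 CPM in control MPP, and to between 39.2 and 63.6 CPM in LT-HSC of both genotypes. In mutant MPP 13 of 14 tested macrophage markers, 7 of 13 hepatoblast markers and all 6 lymphocyte markers tested were called lower. Of all genes tested 18.5% were called lower. Of the red cell markers 10 of 11 were called higher, where 16.5% of all genes tested were. In control MPP against control LT-HSC all 13 tested hepatoblast markers and 9 of 14 macrophage markers were called lower. There 20.5% of all genes tested were called lower. The part of these other cells' RNA in the results below was not tested beyond the fits with the macrophage sum as a covariate.

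The promoters of 5 members are shown: the granule genes Elane, Prtn3 and Fcnb, and Fcgr2b and Plbd1, which changed in both cell types. Elane and Fcnb were called higher in mutant MPP, and Prtn3, the neighbour of Elane, was not called there. Each run is the 300 bases around a start site, 250 before and 50 after, from RefSeq on GRCm38.p6, 5′ to 3′ on the gene's strand. Capitals mark a PU.1 word (GAGGAAGT) in Elane and Prtn3 and C/EBP words (TTGCNNAA) in Fcnb, as read on either strand. Elane is at chr10:79886062-79886361 and Prtn3 at chr10:79879417-79879716, both on the plus strand. Fcnb is at chr2:28084829-28085128, Fcgr2b at chr1:170976022-170976321 and Plbd1 at chr6:136661844-136662143, all on the minus strand. The Plbd1 window lies inside the gene's annotated span.
Elane: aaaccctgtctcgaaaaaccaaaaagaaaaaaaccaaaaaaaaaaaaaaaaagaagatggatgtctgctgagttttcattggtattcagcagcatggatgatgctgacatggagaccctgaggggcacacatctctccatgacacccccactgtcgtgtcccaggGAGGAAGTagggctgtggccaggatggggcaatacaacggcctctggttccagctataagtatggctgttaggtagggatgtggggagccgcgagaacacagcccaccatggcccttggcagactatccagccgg
Prtn3: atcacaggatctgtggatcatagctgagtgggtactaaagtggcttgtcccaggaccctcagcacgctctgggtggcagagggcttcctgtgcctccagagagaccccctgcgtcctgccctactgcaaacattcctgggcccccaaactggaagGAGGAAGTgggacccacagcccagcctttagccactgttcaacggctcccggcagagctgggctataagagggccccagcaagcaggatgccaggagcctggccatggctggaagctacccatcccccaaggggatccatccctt
Fcnb: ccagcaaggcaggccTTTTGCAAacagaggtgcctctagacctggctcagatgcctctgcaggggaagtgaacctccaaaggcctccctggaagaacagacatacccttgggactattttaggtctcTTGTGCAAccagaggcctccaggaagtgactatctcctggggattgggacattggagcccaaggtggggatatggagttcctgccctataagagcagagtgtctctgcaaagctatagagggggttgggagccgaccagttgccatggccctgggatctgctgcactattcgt
Fcgr2b: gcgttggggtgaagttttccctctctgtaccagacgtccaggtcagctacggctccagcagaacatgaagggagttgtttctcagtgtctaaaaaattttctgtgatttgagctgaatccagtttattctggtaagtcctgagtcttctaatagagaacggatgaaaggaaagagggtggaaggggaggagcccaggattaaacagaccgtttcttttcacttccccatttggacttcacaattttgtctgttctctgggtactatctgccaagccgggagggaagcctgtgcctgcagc
Plbd1: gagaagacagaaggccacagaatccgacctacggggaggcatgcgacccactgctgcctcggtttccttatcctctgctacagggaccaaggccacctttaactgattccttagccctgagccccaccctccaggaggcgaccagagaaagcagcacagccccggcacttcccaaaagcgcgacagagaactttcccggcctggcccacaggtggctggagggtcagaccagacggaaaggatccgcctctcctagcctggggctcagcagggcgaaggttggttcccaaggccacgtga

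Elane and Prtn3 are neighbouring genes, and their PU.1 words lay 85 and 95 bases before the start. The C/EBP words of Fcnb lay 235 and 123 bases before its start, and neither word was found in the windows of Fcgr2b and Plbd1. Nor was either found in the window of Ctsg, a granule gene called higher in mutant MPP whose promoter is not shown. Promoters of 31 of the 35 members were matched by symbol. The PU.1 word, searched on both strands, was in 7 of those 31 members, or 22.6%, against 3.69% of 27025 genes with a window of this length. Those members were Elane, F13a1, Ly6c2, Mpo, Pld4, Prtn3 and S100a8. The C/EBP word was in 8 of 31 members, or 25.8%, against 12.2% of genes: Fcgr3, Fcnb, Gfi1, Ltf, Lyz1, Ms4a3, Ngp and S100a9. The words did not overlap in any member window. A match is a description of letters and not of binding, and the words were picked with results of these data known.

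Per length, the highest members in control MPP were Lyz2 at 1788 ± 475 TPM, Mpo at 1461 ± 162 TPM and Cyba at 645 ± 9.75 TPM (SD, n = 3). In control LT-HSC the highest were Lyz2 at 844.5 ± 99.99 TPM, Cyba at 539 ± 38.7 TPM and S100a8 at 395 ± 295 TPM (SD, n = 3). The lowest members in control MPP were Klf4 at 3.07 ± 0.801 TPM and Cebpe at 4.74 ± 1.33 TPM (SD, n = 3). All other levels below are CPM and are compared between libraries, not between genes.

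**Figure D1:**
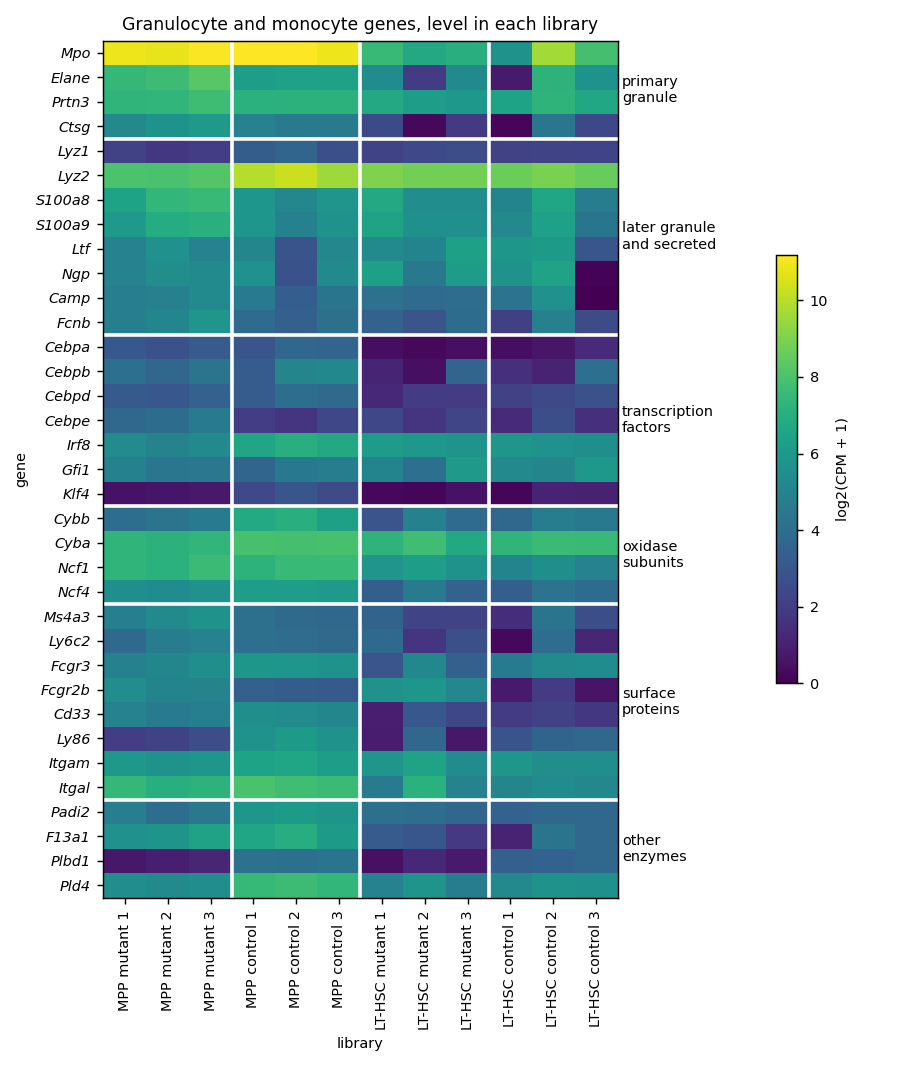
Heat map of log2(CPM + 1) for the 35 genes (rows, grouped by role) in the 12 libraries (columns; mutant MPP, control MPP, mutant LT-HSC and control LT-HSC, 3 each). Mpo reaches 2322 CPM in control MPP 1, and most oxidase, surface and enzyme genes have darker cells, and so lower levels, in LT-HSC than in control MPP.

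In mutant MPP against control MPP, most changed members of the primary granule and the later granule and secreted roles rose. Most of the other members that changed fell. This split goes by the roles named above, which also hold secreted proteins. Plbd1, a granule protein by its description below, was counted with the other enzymes and fell. Of the 35 genes, all of which were tested, 9 were higher and 15 lower in the mutant, where 35% of all 12392 genes tested were called, 16.5% higher and 18.5% lower (edgeR's quasi-likelihood test, Benjamini-Hochberg adjusted p under 0.05). An unadjusted p under 0.05 was found for 29 members, where it was found for 45.4% of all genes tested. The median log2 fold change was -0.55 over the members and -0.01 over all genes tested. The libraries of the groups did not overlap for 25 of 35 members, 10 higher and 15 lower in the mutant, where 51.0% of all genes tested did not overlap. Higher genes were 2 of 4 primary granule enzymes, 4 of 8 later granule and secreted proteins, 1 of 7 transcription factors and 2 of 8 surface proteins. Lower genes were 2 of 8 later granule and secreted proteins, 2 of 7 transcription factors, 3 of 4 oxidase subunits, 5 of 8 surface proteins and 3 of 4 other enzymes. In sorted bulk samples, fewer cells of a type and less RNA per cell cannot be told apart, here and in each comparison below.

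Among the primary granule enzymes, Elane, which encodes neutrophil elastase, had 175, 202 and 313 CPM in mutant MPP and 74.3, 83.5 and 82.5 CPM in control MPP. Every mutant library lay above every control library, and Elane rose by a log2 fold change of 1.50 ± 0.18 (SE, adjusted p = 0.000109). Ctsg, the gene of cathepsin G, had 36.9, 51.6 and 63.4 CPM in mutant MPP and 30.3, 24.1 and 24.5 CPM in control MPP, again without overlap, and rose by 0.92 ± 0.18 on the log2 scale (adjusted p = 0.00259). Prtn3, which encodes proteinase 3, had 159.5, 161 and 209 CPM in mutant MPP and 139, 145 and 145 CPM in control MPP. Its groups did not overlap either, but its log2 fold change of 0.28 ± 0.11 did not pass (adjusted p = 0.0694). Mpo, the gene of myeloperoxidase and the most abundant of these transcripts per length, had 1883, 1781 and 2233 CPM in mutant MPP and 2322, 2286 and 1889.6 CPM in control MPP. Those ranges overlapped, and its log2 fold change of -0.17 ± 0.11 did not pass (adjusted p = 0.240).

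Of the later granule and secreted genes, Fcnb, which encodes ficolin B, a lectin that recognises microbial sugars, had 27.0, 34.3 and 55.5 CPM in mutant MPP and 14.03, 9.88 and 16.6 CPM in control MPP. It rose without overlap by 1.50 ± 0.26 on the log2 scale (adjusted p = 0.0011). S100a8 and S100a9 encode the subunits of calprotectin, a protein that binds calcium and zinc. S100a8 had 89.4, 169.6 and 182 CPM in mutant MPP and 58.4, 34.8 and 56.7 CPM in control MPP, and rose by 1.53 ± 0.25 on the log2 scale (adjusted p = 0.000806). S100a9 had 62.8, 121 and 138 CPM in mutant MPP and 57.5, 29.4 and 51.4 CPM in control MPP, and rose by 1.19 ± 0.28 (adjusted p = 0.00671). Both pairs of groups stood apart, with mutant MPP 1 nearest to the controls.

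The genes of secondary and tertiary granules varied more between libraries of one group. Camp, which encodes the cathelicidin, had 26.6, 28.7 and 39.8 CPM in mutant MPP and 23.7, 9.05 and 19.4 CPM in control MPP, and rose by 0.84 ± 0.28 on the log2 scale (adjusted p = 0.0387). Camp was called under 5 of 13 alternatives, and not under upper-quartile scaling, DESeq2 or the fit of all 12 libraries. Without control MPP 2, mutant MPP 2 or mutant MPP 3 in turn it was not called either. Over the 13 alternatives its log2 fold change lay between 0.54 and 1.70, with adjusted p between 0.0203 and 0.99996. Ltf, the gene of lactoferrin, had 30.1, 50.1 and 30.4 CPM in mutant MPP and 34.5, 6.39 and 34.6 CPM in control MPP. Ngp, which encodes neutrophilic granule protein, had 29.7, 45.6 and 38.9 CPM in mutant MPP and 49.0, 6.06 and 38.7 CPM in control MPP. Neither passed the test, and in both genes control MPP 2 was the lowest of the 6 libraries.

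The lysozyme genes went the other way. Lyz2, the lysozyme gene of myeloid cells, had 254, 247 and 288 CPM in mutant MPP and 990.0, 1253 and 739.6 CPM in control MPP. It fell by 1.95 ± 0.16 on the log2 scale (adjusted p = 1.05e-05), and the lowest control was well above the highest mutant. Lyz1, the lysozyme of Paneth cells in the gut, had 3.59, 2.54 and 3.05 CPM in mutant MPP and 8.87, 11.4 and 5.70 CPM in control MPP, and fell by 1.52 ± 0.28 (adjusted p = 0.00155). Lyz1 shares 16.1% of its 50-base words with Lyz2, so part of the reads of Lyz1 may belong to Lyz2 and its value is uncertain.

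**Figure D2:**
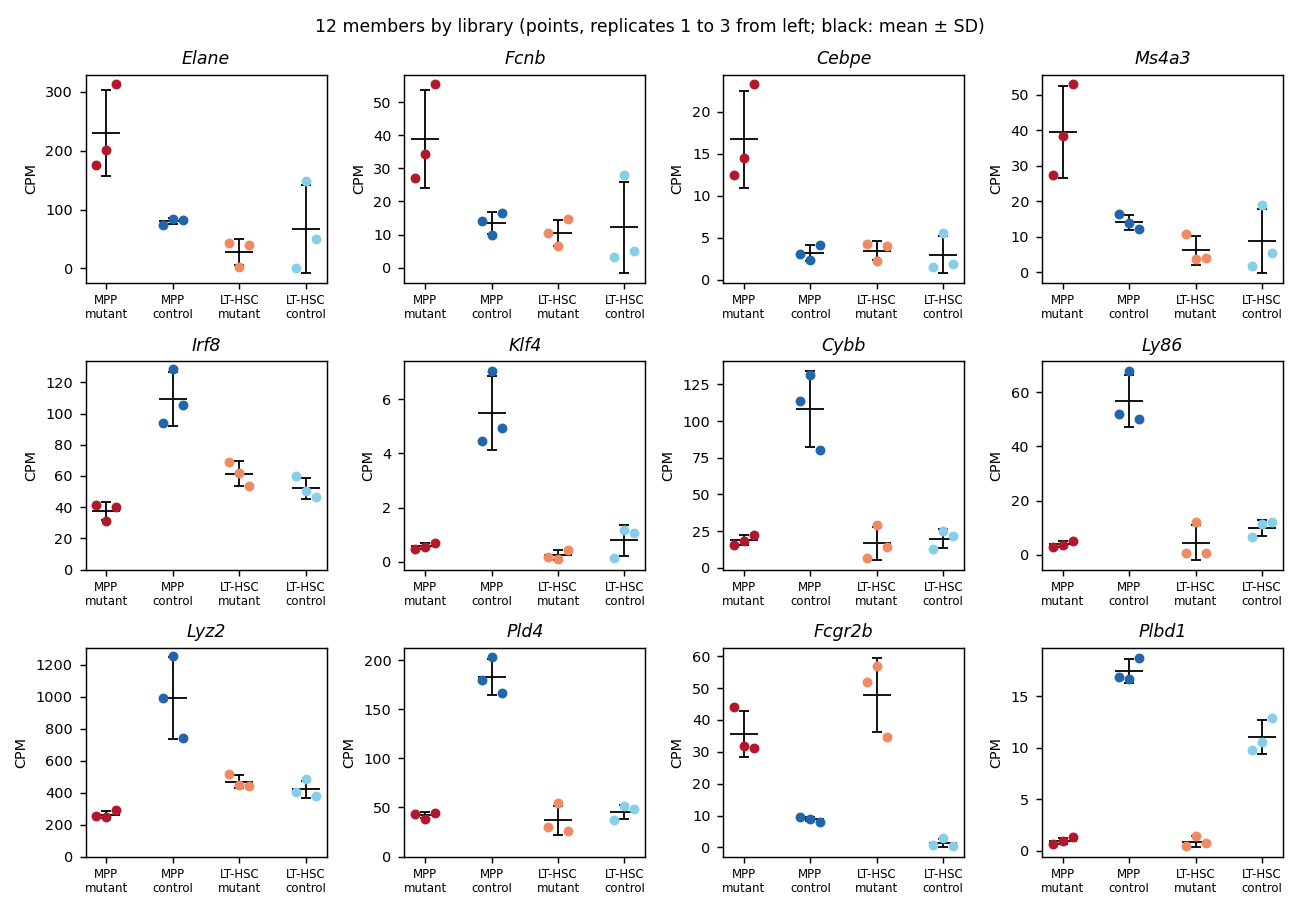
CPM per library (points) with the group mean and SD (bars) for 12 members in mutant MPP, control MPP, mutant LT-HSC and control LT-HSC (n = 3 each). Elane, Fcnb, Cebpe, Ms4a3 and Fcgr2b lie higher in mutant MPP than in control MPP, and Irf8, Klf4, Cybb, Ly86, Lyz2, Pld4 and Plbd1 lie lower.

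Among the transcription factors, Cebpe, which directs late neutrophil maturation, had 12.4, 14.5 and 23.3 CPM in mutant MPP and 3.08, 2.32 and 4.13 CPM in control MPP. It rose by 2.37 ± 0.28 on the log2 scale (adjusted p = 9.32e-05), and its groups did not overlap. Irf8, which directs monocyte and dendritic cell development, had 41.1, 31.2 and 40.3 CPM in mutant MPP and 94.0, 129 and 105 CPM in control MPP, and fell by 1.57 ± 0.14 (adjusted p = 1.84e-05). Klf4, which promotes monocyte differentiation, had 0.460, 0.544 and 0.677 CPM in mutant MPP and 4.47, 7.06 and 4.96 CPM in control MPP, and fell by 3.29 ± 0.32 (adjusted p = 3.09e-05). Every mutant library thus lay below every control library for both monocyte factors.

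The other C/EBP genes and Gfi1 did not pass in MPP. Cebpa, needed for granulocyte-monocyte progenitors, had 7.45, 5.99 and 8.30 CPM in mutant MPP and 6.86, 12.6 and 11.6 CPM in control MPP, with a log2 fold change of -0.54 (adjusted p = 0.0992). Cebpb, used in emergency granulopoiesis, had 15.7, 11.8 and 18.6 CPM in mutant MPP and 8.56, 33.0 and 36.0 CPM in control MPP, with a log2 fold change of -0.77 (adjusted p = 0.156). Cebpd, a related factor of later myeloid cells, had 8.09, 7.25 and 10.6 CPM in mutant MPP and 8.63, 15.4 and 13.465 CPM in control MPP, with a log2 fold change of -0.55 (adjusted p = 0.081). In these 3 genes control MPP 1 was the lowest control, and without it all 3 were called lower in the mutant. Gfi1, a repressor needed for neutrophils, had 29.3, 20.2 and 20.7 CPM in mutant MPP and 11.6, 22.2 and 24.9 CPM in control MPP, and its groups overlapped (log2 fold change 0.24, adjusted p = 0.486).

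Of the oxidase subunits, both membrane subunits and a cytosolic one were lower in mutant MPP. Cybb, which encodes the catalytic subunit gp91phox, had 15.5, 18.6 and 22.4 CPM in mutant MPP and 113, 131 and 80.2 CPM in control MPP, and fell by 2.55 ± 0.19 on the log2 scale (adjusted p = 5.35e-06). Cyba, which encodes its membrane partner p22phox, had 158, 144 and 163 CPM in mutant MPP and 241, 233 and 245 CPM in control MPP, and fell by 0.65 ± 0.08 (adjusted p = 0.000188). Both genes separated the groups, and the catalytic subunit's log2 fold change was the larger in size. Ncf4, the gene of the cytosolic subunit p40phox, had 46.4, 42.9 and 49.8 CPM in mutant MPP and 76.3, 73.4 and 63.4 CPM in control MPP, and fell by 0.64 ± 0.11 (adjusted p = 0.00112). Ncf1, the gene of the cytosolic organiser p47phox, had 159, 142 and 198 CPM in mutant MPP and 149.7, 189 and 189.8 CPM in control MPP, with overlapping groups and a log2 fold change of -0.11 ± 0.13 (adjusted p = 0.548). Of the partners of the oxidase, BC017643, the chaperone of the membrane subunits, fell by 0.49 and Rac2, the small GTPase of the complex, by 0.33 on the log2 scale.

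The surface genes split between higher and lower. Ms4a3, a membrane protein gene that marks granulocyte-monocyte progenitors, had 27.3, 38.4 and 53.1 CPM in mutant MPP and 16.3, 13.8 and 12.1 CPM in control MPP, and rose by 1.46 ± 0.22 on the log2 scale (adjusted p = 0.00045). Fcgr2b, which encodes the inhibitory receptor for IgG, had 44.0, 31.8 and 31.2 CPM in mutant MPP and 9.64, 8.97 and 8.10 CPM in control MPP, and rose by 1.97 ± 0.17 (adjusted p = 1.49e-05). Both genes separated the groups. Ly6c2, a marker of monocytes, had 12.97, 25.8 and 30.3 CPM in mutant MPP and 15.7, 14.8 and 13.8 CPM in control MPP, with overlapping groups and no call (log2 fold change 0.61, adjusted p = 0.0754). Ly6c2 shares 30.8% of its 50-base words with Ly6c1, so how reads were split between these genes is uncertain.

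Ly86 and 4 further surface genes fell. Ly86, which encodes MD-1, the partner of the receptor CD180, had 3.04, 3.63 and 5.25 CPM in mutant MPP and 52.1, 67.9 and 50.3 CPM in control MPP, and fell by 3.85 ± 0.20 on the log2 scale (adjusted p = 3.23e-07). Fcgr3, an activating receptor for IgG, had 29.4, 34.2 and 45.9 CPM in mutant MPP and 58.7, 55.6 and 51.1 CPM in control MPP, and fell by 0.62 ± 0.15 (adjusted p = 0.00845). The activating receptor therefore moved against the inhibitory Fcgr2b, with which it shares 10.2% of its 50-base words, so how reads were split between them is uncertain. Cd33, a sialic acid receptor of myeloid cells, had 29.9, 23.2 and 27.0 CPM in mutant MPP and 46.9, 41.5 and 34.0 CPM in control MPP, and fell by 0.64 ± 0.15 (adjusted p = 0.00658). Itgam, the CD11b integrin chain, had 61.4, 50.6 and 57.2 CPM in mutant MPP and 87.7, 98.0 and 75.4 CPM in control MPP, and fell by 0.65 ± 0.12 (adjusted p = 0.00173). Itgal, the CD11a chain of the leukocyte integrin LFA-1, had 172, 130.1 and 148 CPM in mutant MPP and 253, 213 and 196 CPM in control MPP, and fell by 0.58 ± 0.13 (adjusted p = 0.00433). In all 5 genes every mutant library was below every control library.

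Of the other enzymes, Plbd1, a phospholipase B-like protein of granules, was close to absent in mutant MPP. It had 0.644, 0.907 and 1.27 CPM in mutant MPP and 16.9, 16.7 and 18.8 CPM in control MPP, and fell by 4.21 ± 0.23 on the log2 scale (adjusted p = 4.75e-07). Pld4, a nuclease of endolysosomes, had 43.5, 38.6 and 44.2 CPM in mutant MPP and 179.6, 203 and 167 CPM in control MPP, and fell by 2.15 ± 0.11 (adjusted p = 1.94e-07). Padi2, which converts arginine of proteins to citrulline, had 26.6, 15.7 and 20.6 CPM in mutant MPP and 56.8, 68.0 and 54.7 CPM in control MPP, and fell by 1.54 ± 0.18 (adjusted p = 7.67e-05). These 3 genes separated the groups. F13a1, the A chain of coagulation factor XIII, which monocytes make, had 50.04, 53.7 and 87.2 CPM in mutant MPP and 98.0, 122.6 and 66.99 CPM in control MPP, with overlap and no call (log2 fold change -0.62, adjusted p = 0.0575).

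**Figure D3:**
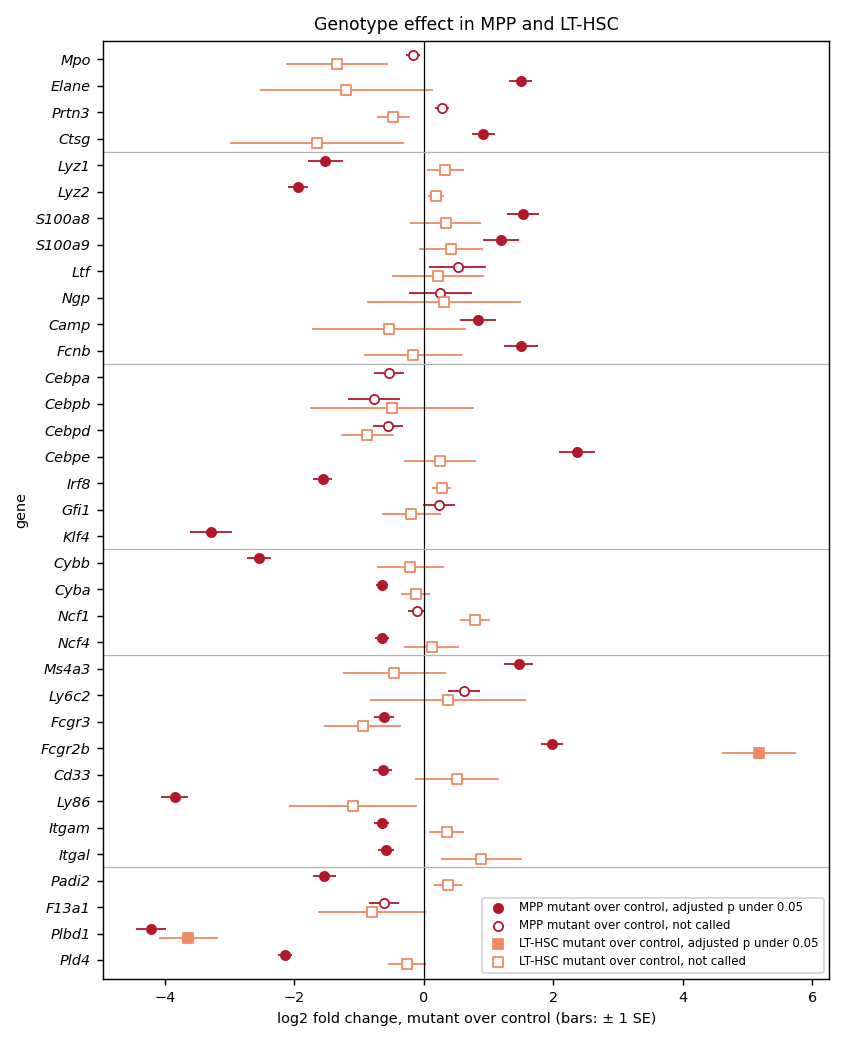
Log2 fold change with 1 SE, mutant over control, of each member in MPP and in LT-HSC; filled points passed an adjusted p of 0.05. In MPP 9 filled points lie above 0 and 15 below it, and in LT-HSC the filled points are Fcgr2b at 5.18 and Plbd1 at -3.64.

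Related genes outside the members were counted from lists by function, in the same fit, where 16.5% of genes were called higher and 18.5% lower. Of 11 tested partners of granule making, 5 rose and 2 fell in mutant MPP. Ctsc, which activates granule proteases, fell by 1.70 on the log2 scale to 104 ± 2.21 CPM in mutant MPP, against 331 ± 41.6 CPM in control MPP (SD, n = 3 each; adjusted p = 1.51e-06). Pglyrp1, Mmp9 and Lcn2, which encode a granule peptidoglycan receptor, gelatinase B and lipocalin-2, rose by 1.32, 2.26 and 1.85 on the log2 scale. Mmp8, which encodes the collagenase of neutrophil granules, was the other gene of this list that fell, by 1.38 on the log2 scale (adjusted p = 0.00756). Of 6 receptors of myeloid growth factors 5 fell, among them Csf1r (M-CSF receptor) by 2.60 and Csf3r (G-CSF receptor) by 0.96 on the log2 scale.

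Of 8 other myeloid transcription factors 6 fell and 0 rose, with Irf5 lower by a log2 fold change of -1.88 and Zeb2 by -0.71. Of 6 receptor partners 4 fell and 1 rose: Tyrobp and Fcer1g, adaptors of activating receptors, fell by 1.40 and 1.23, and Itgb2l, an integrin chain related to that of CD11b, rose by 2.37 on the log2 scale. Of 13 other phagocyte surface genes tested, 12 fell and 1 rose. Clec7a, the receptor for fungal glucans, fell by 6.61 on the log2 scale, and Ccr2, a chemokine receptor of monocytes, fell by 5.28. Ly6c1 was the one that rose, by 4.97 on the log2 scale.

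The macrophage marker sum separated the MPP groups in the same direction as the lower members. With the log2 of that sum as a covariate, 0 members were called in either direction and 15 of all genes were. The covariate itself separated the groups, so that its part and that of the genotype cannot be told apart in this fit. Plbd1 then had a log2 fold change of -4.46, Pld4 of -1.73 and Irf8 of -1.17, with adjusted p of 0.1101, 0.1796 and 0.99996. In a fit of all 12 libraries 3 members were called higher (S100a8, Cebpe and Fcgr2b) and 10 lower. With control MPP 3 as the lone MPP control that carried vav-cre, 0 were called higher and 4 lower (Lyz2, Irf8, Plbd1 and Pld4).

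**Figure D4:**
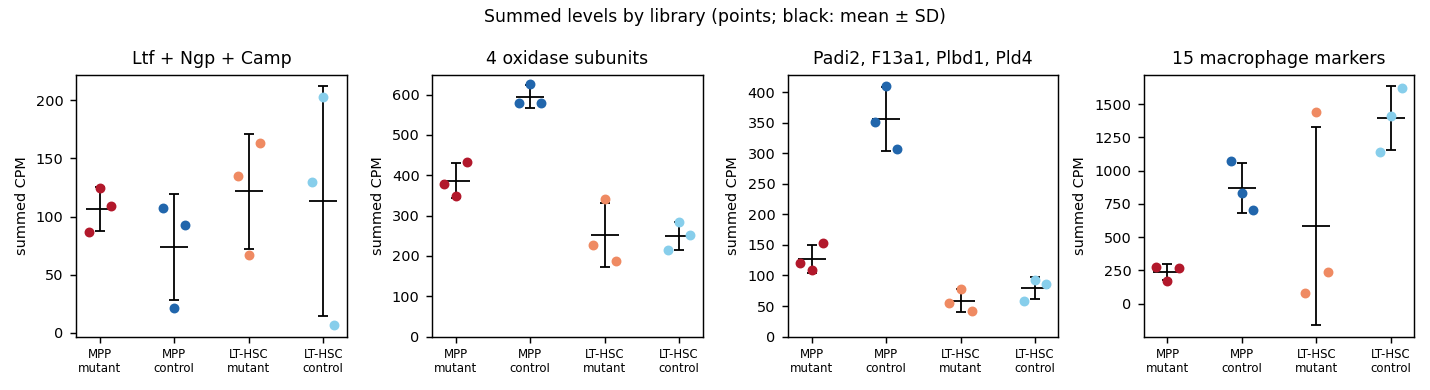
Summed CPM per library (points, with the group mean and SD in black; mutant MPP, control MPP, mutant LT-HSC and control LT-HSC, 3 each) of Ltf, Ngp and Camp, of the 4 oxidase subunits, of the 4 other enzymes and of 15 macrophage markers. The oxidase sum is 378, 348 and 433 CPM in mutant MPP and 580.2, 627 and 578 CPM in control MPP, and the macrophage sum of mutant LT-HSC 2 is 1440.2 CPM.

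In mutant LT-HSC against control LT-HSC, a pair of members changed, the inhibitory receptor gene Fcgr2b upward and the enzyme gene Plbd1 downward. They were 2 of 33 members tested, where 0.420% of 12847 genes were called (edgeR's quasi-likelihood test), and 3 members had an unadjusted p under 0.05, where 9.50% of genes did. Cebpa and Klf4 had too few counts to be tested, with at most 1.51 CPM of Cebpa and 1.18 CPM of Klf4 in any LT-HSC library. The median log2 fold change was -0.13 over the members and 0.03 over all genes. The groups did not overlap for 5 members, where 16.5% of all genes did not overlap: Fcgr2b, Lyz1 and Ncf1 were higher and Plbd1 and Cebpd lower in every mutant library.

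Fcgr2b had 52.0, 56.9 and 34.7 CPM in mutant LT-HSC and 0.726, 2.80 and 0.527 CPM in control LT-HSC. It rose by 5.18 ± 0.57 on the log2 scale (adjusted p = 0.0153), and all 3 mutant libraries were within the range of mutant MPP or above it. Plbd1 had 0.412, 1.44 and 0.737 CPM in mutant LT-HSC and 9.76, 10.5 and 12.9 CPM in control LT-HSC, and fell by 3.64 ± 0.46 (adjusted p = 0.0288). In mutant LT-HSC 2, whose macrophage marker sum was at the controls' level, Fcgr2b and Plbd1 stood near the other mutants. Single macrophage markers of that library went both ways. Vcam1 (10.2 CPM, against 97.4 to 116 CPM in control LT-HSC), Cd5l (40.1 CPM, against 153 to 202 CPM), Marco, Timd4, Axl and Spic were below every control. C1qb (201 CPM, against 109.5 to 167 CPM), C1qa, C1qc, Slc40a1, Hmox1 and Mrc1 were above every control. Emr1, Mertk and Cd163 lay within the controls' range. With the macrophage sum as a covariate, the log2 fold change was 5.33 for Fcgr2b (adjusted p = 0.0779) and -2.83 for Plbd1 (adjusted p = 0.0844), neither of them called. Over 13 alternatives the log2 fold change of Fcgr2b lay between 4.81 and 6.27, with adjusted p up to 0.103, and that of Plbd1 between -4.23 and -2.83, with adjusted p up to 0.159. Without control LT-HSC 1, control LT-HSC 3 or mutant LT-HSC 1 neither gene was called, and without control LT-HSC 2 Plbd1 was not called (adjusted p = 0.136).

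Granule enzymes varied widely among LT-HSC libraries of one genotype. Elane had 42.4, 2.97 and 39.8 CPM in mutant LT-HSC and 0.726, 148 and 50.5 CPM in control LT-HSC. Mpo had 184, 105 and 127 CPM in mutant LT-HSC and 53.4, 794 and 232 CPM in control LT-HSC, and Ctsg lay between 0.192 and 4.77 CPM in mutant LT-HSC and between 0.132 and 20.2 CPM in control LT-HSC. Control LT-HSC 2 was the highest and control LT-HSC 1 the lowest library for all 3 genes. Prtn3 was steadier, with 105, 74.2 and 62.0 CPM in mutant LT-HSC and 87.9, 153 and 102 CPM in control LT-HSC. The SE of the log2 fold change was 1.34 for Elane and 0.25 for Prtn3, so a difference of the size seen in MPP was not detectable for Elane in LT-HSC.

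The later granule genes spread in the same way. S100a8 had 105, 43.6 and 43.2 CPM in mutant LT-HSC and 32.1, 97.1 and 25.6 CPM in control LT-HSC, and S100a9 lay between 47.9 and 87.0 CPM in mutant LT-HSC and between 19.4 and 83.0 CPM in control LT-HSC. Ngp had 77.5, 21.7 and 68.5 CPM in mutant LT-HSC and 52.1, 85.3 and 0.0753 CPM in control LT-HSC. Camp had 17.4, 13.8 and 14.9 CPM in mutant LT-HSC and 18.4, 49.99 and 0 CPM in control LT-HSC. Ltf followed them, with 40.2, 31.6 and 80.1 CPM in mutant LT-HSC and 59.0, 67.4 and 7.01 CPM in control LT-HSC. Control LT-HSC 3 was the lowest of the 6 libraries in all these 5 genes. Fcnb had 10.5, 6.62 and 14.6 CPM in mutant LT-HSC and 3.36, 28.1 and 4.97 CPM in control LT-HSC.

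Several genes that fell in MPP did not pass the test in LT-HSC. Lyz2 had 516, 446 and 444 CPM in mutant LT-HSC and 402, 482 and 380.2 CPM in control LT-HSC, with a log2 fold change of 0.19 ± 0.12 (adjusted p = 0.667). Irf8 had 69.0, 62.1 and 53.4 CPM in mutant LT-HSC and 59.8, 50.1 and 46.7 CPM in control LT-HSC, with a log2 fold change of 0.27 ± 0.15 (adjusted p = 0.633). Both pairs of groups overlapped. Pld4 had 30.3, 54.2 and 25.9 CPM in mutant LT-HSC and 37.3, 51.0 and 48.4 CPM in control LT-HSC, and Padi2 had 16.7, 15.6 and 11.8 CPM in mutant LT-HSC and 10.3, 12.1 and 12.5 CPM in control LT-HSC. Lyz1 lay between 3.95 and 5.31 CPM in mutant LT-HSC and between 3.56 and 3.90 CPM in control LT-HSC, without overlap but not called (log2 fold change 0.33, adjusted p = 0.775).

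The oxidase subunits did not pass in LT-HSC. Ncf1 had 55.6, 74.3 and 51.7 CPM in mutant LT-HSC and 32.1, 46.3 and 29.7 CPM in control LT-HSC, without overlap (log2 fold change 0.79 ± 0.23, adjusted p = 0.327). Cybb had 6.83, 29.2 and 13.9 CPM in mutant LT-HSC and 12.7, 25.3 and 21.8 CPM in control LT-HSC, and Cyba had 155, 213 and 112 CPM in mutant LT-HSC and 160.1, 194 and 186 CPM in control LT-HSC. Ncf4 had 9.47, 24.4 and 10.5 CPM in mutant LT-HSC and 9.43, 18.1 and 14.5 CPM in control LT-HSC. In Cybb, Cyba and Ncf4 mutant LT-HSC 2 was the highest of the 6 libraries.

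Mutant LT-HSC 2 was also the highest mutant for most surface genes. Itgal had 24.4, 141 and 30.1 CPM in mutant LT-HSC and 33.2, 40.6 and 36.2 CPM in control LT-HSC. Ly86 had 0.823, 11.985 and 0.663 CPM in mutant LT-HSC and 6.40, 11.3 and 12.1 CPM in control LT-HSC. Fcgr3 had 6.83, 36.3 and 9.73 CPM in mutant LT-HSC and 24.4, 38.9 and 42.4 CPM in control LT-HSC. Without mutant LT-HSC 2, Ly86 and Fcgr3 were called lower, with log2 fold changes of -3.72 (adjusted p = 0.0202) and -2.08 (adjusted p = 0.0476), against -1.10 and -0.95 with it. Over the alternatives their adjusted p reached 0.966 and 0.959. The macrophage marker sum moved with these genes, at 79.5, 1440.2 and 238 CPM in mutant LT-HSC. With it as a covariate in the fit of all 6 LT-HSC libraries, the log2 fold change was 0.12 for Ly86 (adjusted p = 0.947) and 0.05 for Fcgr3 (adjusted p = 0.959).

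Itgam had 55.2, 85.5 and 42.7 CPM in mutant LT-HSC and 58.7, 44.8 and 44.5 CPM in control LT-HSC, and the groups overlapped. Gfi1 had 31.9, 16.0 and 64.3 CPM in mutant LT-HSC and 36.9, 33.4 and 61.3 CPM in control LT-HSC, and the library numbered 3 was the highest in both groups. Cebpb showed the same order, with 1.23, 0.384 and 11.4 CPM in mutant LT-HSC and 1.85, 1.18 and 16.2 CPM in control LT-HSC. The remaining members, Ms4a3, Ly6c2, Cd33, F13a1, Cebpd and Cebpe, lay between 0.198 and 18.9 CPM in LT-HSC and were not called. None of the members of the related lists of granule partners, growth factor receptors, other transcription factors, receptor partners and other phagocyte surface genes passed in LT-HSC, while between 0 and 4 of each list had an unadjusted p under 0.05.

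The difference between the genotype effects, MPP minus LT-HSC, was tested over all 12 libraries. It was below 0 for 5 members and above 0 for 0 members, where 0.377% of 13249 genes were called, and 12 members had an unadjusted p under 0.05, where 12.4% of genes did (edgeR's quasi-likelihood test). DESeq2 called 7 members lower and 0 higher. The log2 difference was -2.07 ± 0.23 for Lyz2 (adjusted p = 0.00741) and -1.78 ± 0.22 for Irf8 (adjusted p = 0.0114), which were lower in mutant MPP and not called in LT-HSC. It was -1.85 ± 0.28 for Padi2 (adjusted p = 0.0259) and -1.81 ± 0.32 for Pld4 (adjusted p = 0.0418). For Fcgr2b it was -3.15 ± 0.57 (adjusted p = 0.0441), with a rise in both cell types that was larger in LT-HSC.

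Plbd1, which fell in both cell types, had a log2 difference of -0.50 ± 0.50 (adjusted p = 0.777). The granule genes that rose in MPP did not pass this test, and neither did the transcription factor gene Cebpe. The log2 difference was 2.73 ± 1.45 for Elane (adjusted p = 0.489) and 2.16 ± 0.66 for Cebpe (adjusted p = 0.188). Hence the granule genes that rose were not shown to respond differently in MPP and LT-HSC, whereas Lyz2, which fell in MPP, was. Without mutant MPP 2 none of the members passed, with adjusted p of 0.0505 for Lyz2 and 0.0522 for Irf8, the highest of 16 alternatives. Without mutant LT-HSC 3 there were 10 members, Cyba, Cybb, Itgam, Ly86 and Lyz1 in addition. Fcgr2b and Pld4 were called under 6 of the 16 alternatives and Padi2 under 7.

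Control MPP was set against control LT-HSC to show where these genes stand without the mutation. These are the control libraries of the comparisons above, so the values are shared with them. Of 35 members 21 were higher in control MPP and 1 was lower, where 38.5% of 12834 genes were called, 18.0% higher and 20.5% lower. An unadjusted p under 0.05 was found for 23 members, where it was found for 48.2% of genes. The median log2 fold change was 1.23 over the members and -0.01 over all genes. The groups did not overlap for 23 members, where 51.1% of all genes did not overlap. All 4 oxidase subunits and all 4 other enzymes were higher in control MPP, with 6 of 8 surface genes, 4 of 7 transcription factors, 2 of 8 later granule and secreted genes and 1 of 4 primary granule enzymes.

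The surface genes Cd33 and Itgal were higher in control MPP by 3.76 ± 0.20 (adjusted p = 1.7e-06) and 2.59 ± 0.12 (adjusted p = 1.08e-06) on the log2 scale. Cd33 averaged 40.8 ± 6.48 CPM in control MPP and 3.002 ± 0.542 CPM in control LT-HSC (SD, n = 3 each). Cebpa averaged 10.4 ± 3.08 CPM in control MPP and 0.809 ± 0.618 CPM in control LT-HSC (SD, n = 3 each), a log2 fold change of 3.68 ± 0.46 (adjusted p = 0.000235). Ncf1, Ncf4 and Cybb were higher by 2.28, 2.34 and 2.44 on the log2 scale, and Cyba by 0.41. Cyba, the subunit shared with other oxidases, was thus the one nearest to equal between the cell types.

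Padi2 and Pld4 were higher in control MPP by 2.35 and 2.001 on the log2 scale, and Lyz2 and Irf8 by 1.23 and 1.06. Mpo was higher by 2.58 ± 0.69 (adjusted p = 0.0149), with 2322, 2286 and 1889.6 CPM in control MPP and 53.4, 794 and 232 CPM in control LT-HSC. Elane, by contrast, averaged 80.1 ± 5.05 CPM in control MPP and 66.3 ± 74.8 CPM in control LT-HSC (SD, n = 3 each) and was not called (log2 fold change 0.27 ± 0.90, adjusted p = 0.837). Gfi1 was the member lower in control MPP, with 11.6, 22.2 and 24.9 CPM in control MPP and 36.9, 33.4 and 61.3 CPM in control LT-HSC (log2 fold change -1.17 ± 0.29, adjusted p = 0.0106).

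Members differed in the order of the 4 groups, as a few of them show. Cybb averaged 18.8 ± 3.46 CPM in mutant MPP, 108 ± 25.9 CPM in control MPP, 16.7 ± 11.5 CPM in mutant LT-HSC and 19.9 ± 6.54 CPM in control LT-HSC (SD, n = 3 each). Pld4 averaged 42.1 ± 3.04 CPM in mutant MPP, 183 ± 18.6 CPM in control MPP, 36.8 ± 15.2 CPM in mutant LT-HSC and 45.6 ± 7.25 CPM in control LT-HSC (SD, n = 3 each). In Cybb and Pld4 control MPP was the group that stood above the other 3. Cd33, which also fell in mutant MPP, averaged 26.7 ± 3.35 CPM in mutant MPP, 40.8 ± 6.48 CPM in control MPP, 4.15 ± 3.15 CPM in mutant LT-HSC and 3.002 ± 0.542 CPM in control LT-HSC (SD, n = 3 each), so that both MPP groups stood above both LT-HSC groups. Fcgr2b, which rose, had yet another order, with 35.7 ± 7.21 CPM in mutant MPP, 8.90 ± 0.773 CPM in control MPP, 47.9 ± 11.6 CPM in mutant LT-HSC and 1.35 ± 1.26 CPM in control LT-HSC (SD, n = 3 each). Its mutant libraries were above all control libraries in both cell types. In Plbd1 the mutant libraries were below all control libraries, with 0.940 ± 0.315 CPM in mutant MPP, 17.4 ± 1.14 CPM in control MPP, 0.862 ± 0.525 CPM in mutant LT-HSC and 11.1 ± 1.63 CPM in control LT-HSC (SD, n = 3 each). Control MPP stood above control LT-HSC in both Fcgr2b and Plbd1.

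Without control LT-HSC 2, the library rich in granule RNA, 27 members were called higher in control MPP, with Ctsg, Fcnb, Ly6c2, Ms4a3, Prtn3 and S100a8 in addition. Leaving out control MPP 1 ended the calls of Mpo (adjusted p = 0.0561) and Fcgr3, leaving out control MPP 2 that of Fcgr3, and the fit of all 12 libraries ended those of Cyba, Fcgr3, Gfi1 and Plbd1.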

How the data were processed

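RNA of each sorted sample (10 ng) was sequenced after amplification with a kit for small inputs, which keeps no strand, so that reads of overlapping antisense genes are not separated. STAR, RSEM and mm10 are named by the submitters' processing notes, without versions. Each sample's deposited table gives expected counts and TPM per gene, per the file headers. The estimates share reads between similar genes, and 7.13% to 7.76% of the values were fractional. Deposited TPM values were used for levels between genes.

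Expected counts were rounded for edgeR's quasi-likelihood test (edgeR 4.0.16, R 4.3.3). Genes passed filterByExpr at a minimum count of 10 and a minimum total of 15, libraries were scaled by TMM, and p-values were adjusted by Benjamini-Hochberg over every gene tested, with a threshold of 0.05. Genotype was tested in the 6 MPP and in the 6 LT-HSC libraries, cell type in the 6 controls, and the interaction over all 12 libraries. SE is the log2 fold change divided by the root of the test's F value. CPM was scaled jointly over the 12 libraries. All replicates differed by more than counting noise (chi-square per gene 5.22 to 50.0, highest among mutant LT-HSC).

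All members were accounted for. In the genotype comparisons members with a group mean of at least 10 CPM got values per library, except S100a9 and F13a1 in LT-HSC. Of each related list, called genes of smallest p were named. The members, lists and promoter words were chosen with earlier results of these data known. Members' coordinates were matched by accession to RefSeq on GRCm38.p6. Deviations from the group means correlated between same-numbered mutant and control LT-HSC libraries (r over 13249 genes of 0.108, 0.148 and 0.175). Differently numbered LT-HSC pairs had r of -0.203 to 0.056. In other comparisons differently numbered pairs reached 0.210 (mutant MPP 2 with control MPP 3) and 0.202 (control MPP 2 with control LT-HSC 1). An r of this size therefore does not show a shared origin, and the meaning of the numbers is not labelled. These are the titles' numbers, and some deposited tables carry other numbers in their names, all 3 control LT-HSC among them. Alternatives were upper-quartile scaling, DESeq2 1.42.0, no filter, a replicate block, each library left out, a fit of all 12 libraries, only controls with vav-cre, and the macrophage marker sum as a covariate. On simulated counts with 200 genes changed, the share of changed genes recovered at a log2 fold change of 1 was 83.8% in MPP (12280 genes), 43.9% in LT-HSC (12642 genes) and 78.6% between controls (12680 genes). At a log2 fold change of 2 it was 99.0%, 77.6% and 92.9% for these comparisons in that order. In the data 35.0% of genes were called in MPP and 38.5% between controls. The adjustment of p-values depends on how many genes change, so the simulated shares need not hold for those comparisons.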

Additional observations from a re-analysis of the deposited data

Results flagged for a closer look

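The genotype effect differed between MPP and LT-HSC by the interaction test for 5 members, given as the log2 effect in MPP minus that in LT-HSC. The difference was -2.07 for Lyz2, -1.78 for Irf8, -3.15 for Fcgr2b, -1.85 for Padi2 and -1.81 for Pld4. For Lyz2, Irf8, Padi2 and Pld4 the MPP effect was the one that passed its own test, and for Fcgr2b both did. Lyz1 lay lower in every mutant MPP library than in every control MPP library (log2 fold change -1.52). It lay higher in every mutant LT-HSC library than in every control LT-HSC library (0.33), but edgeR did not call that rise (adjusted p = 0.775). Groups without overlap, in either direction, were found for 16.5% of all genes tested in LT-HSC. A rise of Lyz1 in LT-HSC was therefore not shown. The interaction test gave -1.79 for Lyz1 with an adjusted p of 0.0674. Some Lyz1 reads may come from Lyz2, so its values are uncertain.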

How the results depend on the processing

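Precision was limited by 3 libraries per group, and mutant LT-HSC libraries differed most among themselves (chi-square per gene 26.1 to 50.001, against 13.8 to 16.2 in control LT-HSC), so a member not called in LT-HSC may still differ. In mutant against control MPP, with 9 members higher and 15 lower, the fit of all 12 libraries gave 3 higher and 10 lower, controls with vav-cre alone (1 MPP control, assumed to vary like the other groups) gave 0 and 4, and the macrophage covariate gave 0 and 0. Under that covariate Cd33 in MPP mutant vs control turned to 0.46 and Itgal in MPP mutant vs control to 0.43 on the log2 scale, neither of them called. In LT-HSC, with 1 and 1, the covariate gave 0 and 0 and the other 6 fits on all replicates or on Cre-carrying controls gave 1 and 1. Between controls, with 21 higher and 1 lower, the fit of all 12 libraries gave 18 higher and 0 lower. The cause was not tested. Leaving out each library in turn gave 8 to 11 higher and 15 to 18 lower in MPP, 0 to 1 higher and 0 to 3 lower in LT-HSC, 19 to 27 higher and 1 to 2 lower between controls, and 0 higher and 0 to 10 lower in the interaction. Over all genes the calls then ran from 2774 to 4756, from 13 to 102, from 3410 to 4873 and from 1 to 885 in those comparisons. S100a8 in control MPP vs control LT-HSC ranged from -0.38 without control LT-HSC 3 to 0.78 without control LT-HSC 2, where its sign turned. DESeq2 called 10 higher and 15 lower members in MPP, and over all genes 146 higher and 136 lower in LT-HSC against 33 and 21 by edgeR, and 336 in the interaction against 50. Upper-quartile scaling called 8 and 16 members in MPP and 1627 higher and 2719 lower genes, against 2039 and 2298.

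With the replicate number as a block, 9 members were higher and 15 lower in MPP, 1 and 1 in LT-HSC, 24 and 1 between controls (with Cebpb, Ctsg and Ly6c2) and 0 and 5 in the interaction. Same-numbered MPP libraries (r of -0.02, -0.21 and -0.18) and same-numbered control MPP and LT-HSC (0.06, -0.26 and 0.07) did not deviate together. An r of this size neither shows nor excludes a shared origin. These checks and the block use the numbers in the sample titles, and the numbers in the names of some deposited tables differ from them.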

Other observations

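The summed CPM of Ltf, Ngp and Camp, genes of secondary and tertiary granules, did not order the libraries by group. It was 86.4, 124 and 109 CPM in mutant MPP, 107, 21.5 and 92.7 CPM in control MPP, 135, 67.1 and 163 CPM in mutant LT-HSC, and 129.6, 203 and 7.08 CPM in control LT-HSC. By call in mutant MPP, either promoter word was in 5 of 8 higher members with a window, in 3 of 13 lower members and in 7 of 10 members not called. The share was thus highest in members not called. Over all genes with a window, 12.2% had the C/EBP word and 3.69% the PU.1 word, and the share with either was not counted. A link between the words and the calls was not tested.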
